A study of Homo sapiens with 10 samples.

Results

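The 10 genes described here are the coactivators YAP1 and WWTR1 (the gene for TAZ), the DNA-binding factors TEAD1, TEAD2, TEAD3 and TEAD4, and the target genes CCN1, CCN2, ANKRD1 and AMOTL2. They were picked by name from the 55841 gene identifiers with counts, and all 10 had a row. CCN1 and CCN2 carried the older symbols CYR61 and CTGF. RNA sequencing had been run on 10 bulk libraries of HES9 cells, as the labels name this line of human embryonic stem cells, grown on matrigel in mTESR1, a defined medium for undifferentiated stem cells. The labels call 5 of them general, the unsorted culture, and 5 HHH, the fraction sorted by flow cytometry for high binding of 3 surface markers, GCTM-2, CD9 and EPCAM. Batch 1 held 2 general and 2 HHH libraries and batch 2 held 3 of each. The study asked what sets the triple-high cells apart from the culture they came from. All libraries came from 1 line, nothing says that they came from separate cultures, and p-values therefore measure the spread between these libraries. The study's design text mentions protein kinase C inhibitors, but no label of these libraries names a drug, and whether the general cells were dissociated or passed through the sorter is not given in the sources used here.

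YAP and TAZ are coactivators with no DNA-binding domain of their own. They reach their target genes by binding TEAD factors. The kinase cascade of the Hippo pathway, MST and LATS with their adaptors SAV1 and MOB1, ends in LATS, which phosphorylates YAP and TAZ and holds them in the cytoplasm. The pathway reads cell density, polarity, tension of the actin cytoskeleton and soluble factors. In human embryonic stem cells YAP and the TEADs are known for roles in survival and in the choice between self-renewal and differentiation. Because the activity of YAP is set largely by its phosphorylation and its place in the cell, the RNA of YAP1 is a measure of supply and not of activity, and target gene RNA is the usual readout.

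Library totals ran from 47242595 to 78503395 counts. Levels are given as CPM (counts scaled to a common library total), scaled by edgeR's trimmed mean of M values, and compared between genes only as CPM per kilobase of exon (RPKM). The 10 markers of undifferentiated stem cells were all measured, and their summed level was 5023 to 7172 CPM in the general libraries and 5021 to 6772 CPM in the HHH libraries. Of these 10 markers 2 were called higher in HHH and 2 lower with edgeR, beside 1.94% and 3.89% of all 23552 tested genes. EPCAM, which was used for the sort, and NANOG, a pluripotency factor, were higher, with log2 fold changes of 0.41 (adjusted p = 0.00645) and 0.44 (adjusted p = 0.00572). PODXL and SOX2 were lower, with -0.40 (adjusted p = 0.0306) and -0.26 (adjusted p = 0.0375), and these calls held in 3 and 2 of the 10 fits that left out a library. CD9 differed by 0.29 (adjusted p = 0.195). In the fit blocked on the replicate number 4 were higher, CD9 (adjusted p = 0.0186) and TDGF1 (adjusted p = 0.0342) being added, and 1 was lower, SOX2 being lost (adjusted p = 0.0773). All 10 mesoderm and endoderm markers had means under 1 CPM in both populations, with FOXA2 above 1 CPM in the HHH libraries of batch 1 alone (1.67 and 1.37 CPM).

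The levels of the 10 genes spanned a wide range in these cells, with TEAD2, YAP1 and CCN2 at the top and ANKRD1 near the counting limit. TEAD2 had a mean of 50.3 ± 9.02 RPKM (SD, n = 10), YAP1 25.7 ± 3.53, CCN2 20.8 ± 4.06 and TEAD4 17.3 ± 2.82. A middle group held TEAD1 at 9.46 ± 1.06 RPKM, CCN1 at 8.70 ± 2.27, AMOTL2 at 8.13 ± 1.07 and TEAD3 at 7.33 ± 1.20. WWTR1 was far lower at 1.59 ± 0.148 RPKM, and ANKRD1 was at 0.0501 ± 0.0494 RPKM. TEAD2 was above YAP1, TEAD4 above TEAD1, TEAD3 above WWTR1 and WWTR1 above ANKRD1 in 10 of 10 libraries. Neighbours inside these blocks could not be ordered so firmly. YAP1 was above CCN2 in 7 of 10 libraries, CCN2 above TEAD4 in 9, TEAD1 above CCN1 in 6, CCN1 above AMOTL2 in 6 and AMOTL2 above TEAD3 in 7. In the log2 RPKM table that the authors deposited, with their own gene lengths, CCN1 ranked 5 and TEAD1 ranked 6 and the other genes kept their ranks.

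**Figure D1:**
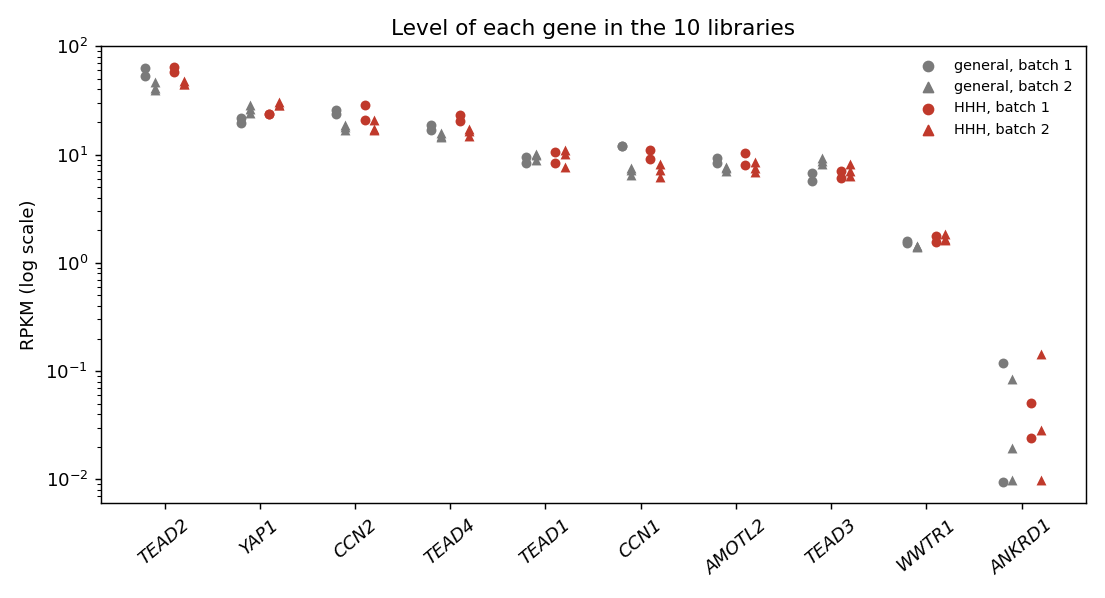
RPKM (log axis) of the 10 genes in each library, ordered by mean level; grey points are general libraries, red points HHH libraries, circles batch 1 and triangles batch 2. TEAD2 lies between 39.1 and 64.7 RPKM and WWTR1 between 1.41 and 1.85 RPKM, with general and HHH points side by side for each gene.

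YAP1 supplied nearly all coactivator RNA and TEAD2 most TEAD RNA. Of the summed RPKM of YAP1 and WWTR1, YAP1 made up 92.6% to 95.3% over the 10 libraries. Within the TEAD family, which share a DNA-binding domain and recognise the same sequence, TEAD2 made up 54.4% to 65.0% of the summed RPKM, TEAD4 19.2% to 22.7%, TEAD1 8.14% to 13.7% and TEAD3 5.95% to 12.6%. The mean share of TEAD2 was 59.0% ± 4.57 in the general libraries and 59.5% ± 3.50 in the HHH libraries (SD, n = 5 each). TEAD4 had 19.7% ± 0.487 in general and 21.2% ± 1.28 in HHH. Over both batches together the general and HHH ranges of each TEAD share overlapped. Within batch 2 the TEAD3 share was 10.7% to 12.6% in general and 8.20% to 10.3% in HHH, without overlap. Within batch 1 the TEAD4 share was 19.5% and 19.4% in general and 22.7% and 21.4% in HHH, also without overlap. The other ranges overlapped within each batch. These shares are descriptions without a test.

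**Figure D2:**
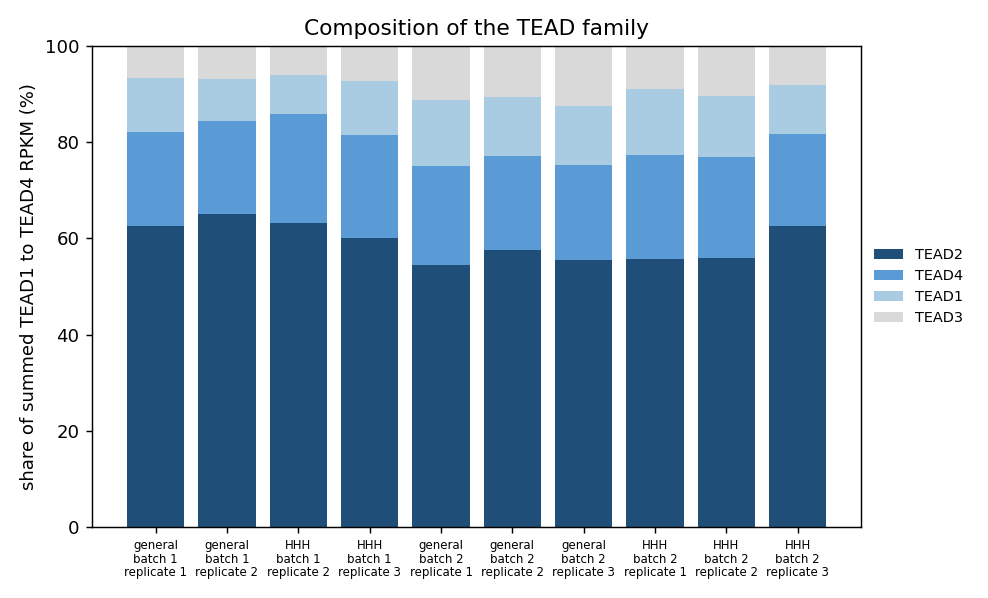
Share of TEAD1 to TEAD4 in their summed RPKM (%), 1 stacked bar per library. TEAD2, the darkest segment, is the largest in all 10 bars, from 54.4% to 65.0%.

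In HHH cells against the general culture, none of the 10 genes was called changed. Of the 9 that could be tested, 0 passed an adjusted p of 0.05 with edgeR, where 3.89% of 23552 tested genes were called lower in HHH and 1.94% higher. DESeq2 and limma voom also called 0 of them. With edgeR 3 (YAP1, WWTR1 and TEAD4) had an unadjusted p under 0.05, as did 4923 of all 23552 tested genes. All 3 lay on the higher side in HHH. The 95% intervals of the 9 fold changes ran from 0.784 at the lowest bound (TEAD3) to 1.29 at the highest (WWTR1), so each interval excluded a change of 1.5-fold either way. The median log2 fold change of the 9 was 0.05, beside 0.02 over all tested genes. In bulk libraries a lower count can come from fewer cells of a type or from less RNA per cell, and these cannot be told apart.

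YAP1 lies at chr11:102110447-102233424 (GENCODE 44, GRCh38). In batch 1 it was at 125 and 136 CPM in the general libraries and 151 and 150.2 CPM in the HHH libraries. In batch 2 it was at 167, 183 and 154 CPM in general and 193, 182 and 179.7 CPM in HHH. All 5 HHH libraries were above the general mean of their batch. The groups did not overlap in batch 1 and overlapped in batch 2. Here and below, the share of all tested genes whose groups do not overlap was not counted. Such separation is therefore a description only. The log2 fold change was 0.16 (SE 0.0694, adjusted p = 0.196), a fold change with a 95% interval of 1.01 to 1.24.

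WWTR1, at chr3:149517235-149736714, had far fewer counts. Its batch 1 levels were 13.3 and 12.6 CPM in general and 13.1 and 14.9 CPM in HHH libraries. Those of batch 2 were 11.8, 12.0 and 12.0 CPM in general against 15.5, 13.9 and 13.4 CPM in HHH. Here the populations overlapped in batch 1 and separated in batch 2, with HHH above, and again 5 of 5 HHH libraries exceeded the general mean of their batch. The difference was 0.20 on the log2 scale (SE 0.0781, adjusted p = 0.156; interval of the fold 1.02 to 1.29). By these counts both coactivators thus sat slightly to the HHH side without passing the test. The log2 RPKM values that the authors deposited put both batch 1 HHH libraries below both general libraries. For YAP1 they were 4.68 and 4.77 in general against 4.55 and 4.48 in HHH. For WWTR1 they were 0.84 and 0.73 in general against 0.43 and 0.54 in HHH.

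Among the TEAD factors, TEAD4 (chr12:2959330-3040676), which is known from mouse embryos for its part in trophectoderm formation, was nearest to a call. It was at 37.9 and 42.9 CPM in general and 53.0 and 46.7 CPM in HHH libraries of batch 1, where the groups did not overlap. Batch 2 gave 33.6, 36.0 and 33.4 CPM in general and 39.2, 37.8 and 33.4 CPM in HHH, with overlap. Its log2 fold change was 0.18 (SE 0.0772, adjusted p = 0.197). TEAD3 (chr6:35473597-35497079) leaned the other way. It was at 17.5 and 20.5 CPM in general and 18.6 and 21.3 CPM in HHH in batch 1, and in batch 2 at 24.7, 26.7 and 28.3 CPM in general and 21.7, 25.0 and 19.1 CPM in HHH. Over both batches TEAD3 gave -0.14 on the log2 scale (SE 0.0985, adjusted p = 0.444), and 4 of 5 HHH libraries were under the general mean of their batch. TEAD2 (chr19:49340595-49362457), the most abundant of the family, ran from 117 to 188 CPM in general and from 132 to 193 CPM in HHH libraries, a log2 difference of 0.09 (adjusted p = 0.545). TEAD1 (chr11:12674421-12944737) ran from 90.0 to 107 CPM in general and 82.7 to 117 CPM in HHH, and its difference of 0.03 (adjusted p = 0.897) changed sign when single libraries were left out, from -0.03 to 0.11.

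The target genes other than CCN1 are shown with their promoters, because the TEAD recognition sequence GGAATG stands in several of them. The 250 bases before the start of each gene were read from RefSeq (GRCh38.p14), and 7 of the 10 genes had at least 1 such window. CCN1, TEAD1 and TEAD4 had none and were not searched. The letters GGAATG were searched on both strands, CATTCC being the same motif read from the other strand. CCN2, a secreted matricellular protein and a standard readout of YAP activity, held 3 matches, whose farthest bases lie 169, 104 and 95 bases before the start. ANKRD1, a nuclear ankyrin repeat protein of stressed muscle and another standard readout, held 2, at 220 and 128 bases. AMOTL2, an angiomotin family protein that binds YAP at cell junctions and is itself induced by it, held 1 in the window of the inner of its pair of listed starts, at 69 bases. YAP1 itself held 1 at 162 bases. The 6 bases of each match are in capitals and 250 bases are printed, except 30 around the match of AMOTL2, since in GENCODE that stretch lies within exons of transcripts from the outer start. The sequences are 5′ to 3′ on the strand of the gene, those of CCN2 at chr6:131951373-131951622, ANKRD1 at chr10:90921088-90921337 and AMOTL2 at chr3:134374499-134374528, all on the minus strand, and that of YAP1 at chr11:102110197-102110446 on the plus strand, where an antisense lncRNA is also annotated.
CCN2: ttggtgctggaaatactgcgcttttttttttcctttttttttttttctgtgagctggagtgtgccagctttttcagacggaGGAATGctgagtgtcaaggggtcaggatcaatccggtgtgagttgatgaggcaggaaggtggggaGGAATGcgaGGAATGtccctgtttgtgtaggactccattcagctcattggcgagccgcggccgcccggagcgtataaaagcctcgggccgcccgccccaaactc
ANKRD1: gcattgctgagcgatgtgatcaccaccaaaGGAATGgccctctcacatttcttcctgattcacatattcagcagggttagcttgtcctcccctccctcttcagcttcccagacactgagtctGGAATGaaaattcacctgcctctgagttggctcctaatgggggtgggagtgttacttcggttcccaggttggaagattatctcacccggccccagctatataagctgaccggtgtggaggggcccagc
AMOTL2: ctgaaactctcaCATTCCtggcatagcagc
YAP1: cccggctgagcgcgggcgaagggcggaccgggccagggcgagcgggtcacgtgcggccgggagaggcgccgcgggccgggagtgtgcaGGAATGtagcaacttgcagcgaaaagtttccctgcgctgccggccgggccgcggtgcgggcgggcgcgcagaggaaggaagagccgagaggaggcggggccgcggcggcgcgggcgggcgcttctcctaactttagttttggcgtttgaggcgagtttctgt
Of 35116 such windows in the RefSeq table, 11.9% held at least 1 match, 0.94% held 2 or more and 0.0826% held 3 or more. No match stood in the windows of WWTR1, TEAD2 and TEAD3. A match is a string of letters and not a bound site.

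None of the target genes was called between the populations. CCN2 (chr6:131948176-131951372) was at 55.8 and 60.6 CPM in general and 48.7 and 66.5 CPM in HHH libraries of batch 1, where the HHH pair lay on either side of the general pair. In batch 2 it was at 39.4, 43.8 and 42.1 CPM in general and 40.5, 49.1 and 39.6 CPM in HHH. Its log2 fold change of 0.02 (SE 0.0910, adjusted p = 0.924) changed sign with scaling to library size alone and in a fit blocked on the replicate number. CCN1, the sister matricellular protein at chr1:85580761-85584589, was at 44.6 and 44.7 CPM in general and 33.7 and 40.9 CPM in HHH in batch 1, with HHH below. Batch 2 showed 27.7, 23.8 and 26.7 CPM in general and 22.9, 30.4 and 26.5 CPM in HHH, with overlap, and the difference over both batches was -0.09 (SE 0.0953, adjusted p = 0.647). AMOTL2 (chr3:134355347-134375479) gave 59.9 and 54.3 CPM in general and 52.0 and 67.5 CPM in HHH in batch 1, and 45.9, 49.0 and 49.5 CPM against 48.7, 55.3 and 44.6 CPM in batch 2. Its groups overlapped in both batches, and the log2 difference was 0.05 (SE 0.0842, adjusted p = 0.778). The intervals of the fold change were 0.887 to 1.16 for CCN2, 0.818 to 1.08 for CCN1 and 0.914 to 1.17 for AMOTL2.

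ANKRD1 (chr10:90912096-90921087) was near the counting limit. In the general libraries it had 14 and 1 counts in batch 1 and 2, 1 and 9 counts in batch 2. In the HHH libraries it had 2 and 4 counts in batch 1 and 3, 15 and 1 counts in batch 2. These are 0.0168 to 0.259 CPM where 3 counts, taken as the limit of counting, correspond to 0.0460 to 0.0687 CPM in these libraries. The populations overlapped fully, and the gene was too low to be tested.

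The sort was also compared within each batch. In batch 1 alone 0 of the 9 genes were called (0.573% of 23720 tested genes were called in either direction). Only 1, TEAD4, had an unadjusted p under 0.05, as did 2974 of the 23720 genes. In batch 2 alone 0 were called, where 8.05% of 24025 genes were called lower and 5.13% higher. An unadjusted p under 0.05 was found for 2 (WWTR1 and TEAD3), as for 7157 of the 24025 genes. WWTR1 was higher in HHH by 0.25 in batch 2 (adjusted p = 0.0827) and by 0.11 in batch 1 (adjusted p = 0.803). TEAD3 differed by -0.29 in batch 2 (adjusted p = 0.0864) and by 0.07 in batch 1 (adjusted p = 0.893). The batch 2 value of TEAD3 became -0.39 (adjusted p = 0.0402) without HHH batch 2 replicate 2 and was -0.19 to -0.34 with adjusted p from 0.113 to 0.261 without each of the other 5. Whether a gene's difference itself changed between batches was tested as an interaction, which called 0 of the 9 (0.777% of all tested genes were called). An unadjusted p under 0.05 was found for 0 of the 9 and for 4447 of all 23552 tested genes. The interaction for TEAD3 was -0.35 on the log2 scale with an adjusted p of 0.294, and that for CCN1 0.29 with an adjusted p of 0.371.

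**Figure D3:**
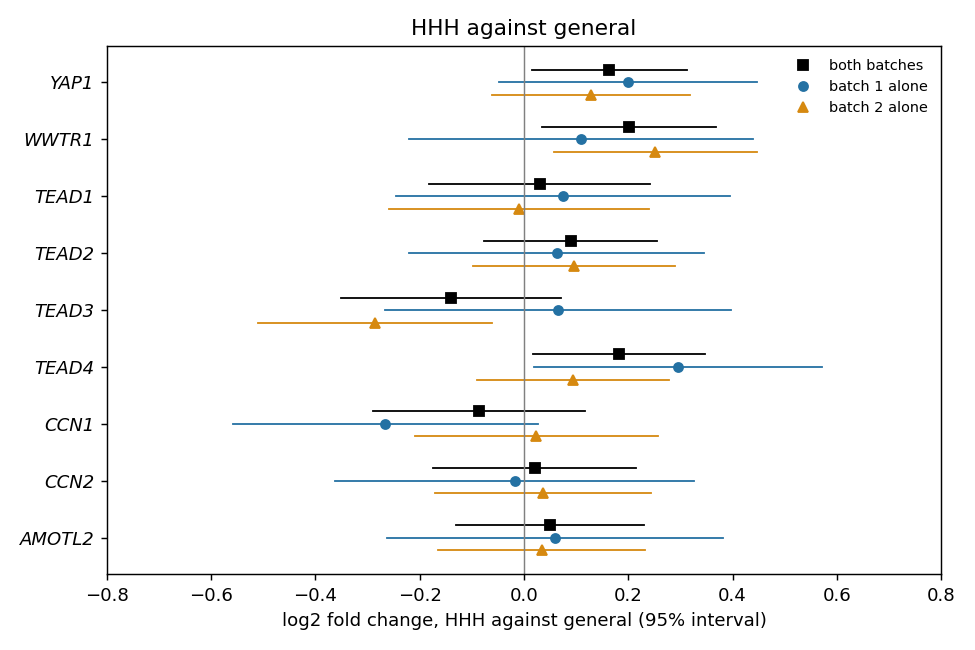
Log2 fold change of HHH against general for the 9 tested genes with 95% intervals, over both batches (black squares) and in batch 1 (blue circles) and batch 2 (orange triangles) alone. No point lies beyond 0.30 on either side of 0, and the intervals of batch 1, with 2 libraries a group, are the widest.

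The same genes differed between the batches. Between batch 2 and batch 1, 7 of the 9 were called, 5 lower and 2 higher in batch 2, against 23.9% of all tested genes called lower and 24.0% called higher. CCN1 fell from 41.0 ± 5.18 (SD, n = 4) CPM in batch 1 to 26.3 ± 2.73 (SD, n = 6) CPM in batch 2, a 1.55-fold lower level (log2 fold change -0.63, SE 0.0961, adjusted p = 0.000119) and the only one of the 9 past 1.5-fold. CCN2 fell from 57.9 ± 7.53 (SD, n = 4) to 42.4 ± 3.66 (SD, n = 6) CPM (log2 -0.45, adjusted p = 0.00120). AMOTL2 fell by 0.26 on the log2 scale (adjusted p = 0.0224), so that the 3 tested target genes were all called lower in batch 2. The call on AMOTL2 was lost without general batch 1 replicate 1 (adjusted p = 0.0592), HHH batch 1 replicate 3 (0.0896), general batch 2 replicate 1 (0.0516) or HHH batch 2 replicate 3 (0.0522). The batches did not overlap for CCN1, whose lowest batch 1 library was at 33.7 CPM and highest batch 2 library at 30.4 CPM, while for CCN2 and AMOTL2 they overlapped.

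TEAD2 and TEAD4, which took the largest shares of TEAD RNA in all 10 libraries, were also lower in batch 2, with log2 fold changes of -0.44 and -0.34 (adjusted p = 0.000420 and 0.00286). YAP1 was higher in batch 2, at 176 ± 13.6 (SD, n = 6) CPM against 141 ± 12.5 (SD, n = 4) CPM (log2 0.33, adjusted p = 0.00181). TEAD3 was higher too, by 0.31 (adjusted p = 0.0214), a call lost without general batch 1 replicate 1 (0.0906), general batch 1 replicate 2 (0.0533) or HHH batch 2 replicate 2 (0.0563). Between 5 and 7 of the 9 genes were called when a library was left out. WWTR1 and TEAD1 were not called (-0.04 and 0.06). These differences depend on scaling. With library size alone the median log2 difference of all tested genes between the batches was 0.34, and relative to that median the values were 0.32 for YAP1, 0.30 for TEAD3, -0.64 for CCN1, -0.46 for CCN2, -0.45 for TEAD2, -0.34 for TEAD4 and -0.26 for AMOTL2. Taken without that centring, 4 genes were called higher in batch 2 (YAP1, TEAD3, WWTR1 and TEAD1) and 1, CCN1, lower. WWTR1 then changed sign to 0.29 (adjusted p = 0.0156), TEAD1 stood at 0.39 (adjusted p = 0.0116) and AMOTL2 changed sign to 0.07, uncalled. What the batches were (culture, sort, library or run) is not given in the sources used here.

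**Figure D4:**
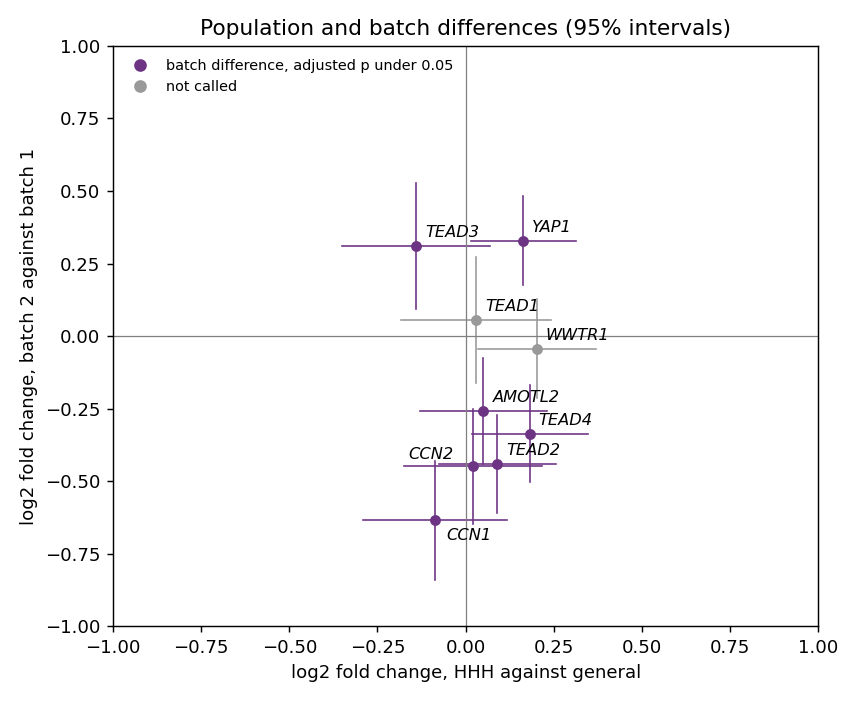
For the 9 tested genes, the log2 fold change of HHH against general (x axis) and of batch 2 against batch 1 (y axis), each with its 95% interval; purple marks genes called between the batches. The points spread from -0.63 to 0.33 along the y axis and from -0.14 to 0.20 along the x axis.

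Upstream of YAP, no Hippo kinase was called in HHH cells. All 11 genes of the kinase cassette (MST1 and MST2 as STK4 and STK3, LATS1, LATS2, their adaptors and the kinases TAOK1 to TAOK3 and MAP4K4) were tested and 0 were called with edgeR, with 1 of them, LATS2, at an unadjusted p under 0.05 (-0.20 on the log2 scale, adjusted p = 0.207). That unadjusted limit was passed by 4923 of all 23552 tested genes. The highest CPM values were those of TAOK1, with a log2 difference of -0.09 (adjusted p = 0.524), and MAP4K4, with -0.07 (adjusted p = 0.739). Of 18 genes that act on the pathway at junctions, polarity complexes or as scaffolds, 2 were lower and 1 was higher, with a list median of -0.10. Over all 23552 tested genes 3.89% were called lower and 1.94% higher. With the replicate number as a block, 4 were lower and 0 higher, AMOT (log2 fold change -0.42, adjusted p = 0.0101) and DCHS1 (-0.52, adjusted p = 0.0335) being gained and AMOTL1 lost. FAT1, an atypical cadherin, was lower in HHH (log2 fold change -0.44, SE 0.0953, adjusted p = 0.0137), from 573 ± 108 to 419 ± 34.3 CPM (SD, n = 5 each). AJUBA, a LIM-domain protein that binds and restrains LATS, was also lower (log2 fold change -0.42, SE 0.0842, adjusted p = 0.00738). AMOTL1, an angiomotin relative of AMOTL2 that tethers YAP, was higher by 0.41 (adjusted p = 0.0350). The call on AMOTL1 was the least firm of these. It was lost with the replicate block (adjusted p = 0.0646), with library size alone, and in all fits that left out a library except those without HHH batch 1 replicate 3, general batch 2 replicate 2 or HHH batch 2 replicate 3, reaching 0.105 without HHH batch 2 replicate 1.

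A cofactor of the TEADs was lower in HHH cells. VGLL3, a vestigial-like protein that binds TEAD factors at the surface used by YAP, was at 27.0 and 20.2 CPM in general and 9.93 and 11.7 CPM in HHH libraries of batch 1. In batch 2 it was at 22.9, 24.8 and 22.0 CPM in general and 12.6, 13.4 and 14.1 CPM in HHH. Every HHH library was below every general library, and the log2 fold change was -0.93 (SE 0.101, adjusted p = 6.47e-05), past the threshold without any single library. VGLL4, the relative that competes with YAP for TEADs, had a log2 difference of 0.20 (adjusted p = 0.0610) and was not called. VGLL1 had 0 counts in all 10 libraries and VGLL2 at most 5.

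Other genes commonly listed as YAP targets did include called ones. Of 18 such genes 17 were tested, of which 5 were lower in HHH and 1 higher, with a list median of -0.12 beside 0.02 over all tested genes. Of all 23552 tested genes 3.89% were called lower and 1.94% higher. LATS2 is also in the kinase list and PTPN14 also in the list of upstream genes. AXL, a receptor tyrosine kinase, was at 62.8 and 57.0 CPM in general and 45.8 and 41.5 CPM in HHH in batch 1, and at 49.4, 59.0 and 52.7 CPM against 32.1, 33.4 and 27.6 CPM in batch 2. All HHH libraries lay below all general libraries (log2 fold change -0.66, SE 0.0887, adjusted p = 0.000431). NUAK2, a kinase that acts on actomyosin, was at 11.7 and 9.93 CPM in general and 7.61 and 9.13 CPM in HHH in batch 1 and at 11.4, 15.0 and 13.1 CPM against 6.77, 8.16 and 6.59 CPM in batch 2 (-0.67, adjusted p = 0.00427). Its groups did not overlap either.

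The secreted factors among these targets were scarce. TGFB2, a TGF-beta ligand, was at 1.55 ± 0.255 CPM in general and 0.808 ± 0.0846 CPM in HHH (-0.94, adjusted p = 0.00283). IGFBP3, which binds insulin-like growth factors, was at 7.11 ± 1.16 and 3.97 ± 0.798 CPM (-0.85, adjusted p = 0.00125), SD and n = 5 each. Neither overlapped between the populations, and AXL, NUAK2, TGFB2 and IGFBP3 stayed called without any single library. MYOF, a membrane repair protein, was the fifth that fell (-0.48, adjusted p = 0.0287). It was lost with the replicate block (adjusted p = 0.0709) and without any 1 of the 6 libraries of batch 2, up to 0.0728 without general batch 2 replicate 2. CCDC80, a secreted matrix protein, was the gene that rose (0.49, adjusted p = 0.0480), and this call was lost with both other scalings and in all fits that left out a library except those without general batch 1 replicate 2 or HHH batch 1 replicate 3, up to 0.145 without HHH batch 2 replicate 2. FJX1, singled out after its values were seen, was not called over both batches (-0.12, adjusted p = 0.671), but its difference changed between the batches, from 0.39 in batch 1 to -0.48 in batch 2 (interaction adjusted p = 0.0240).

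**Figure D5:**
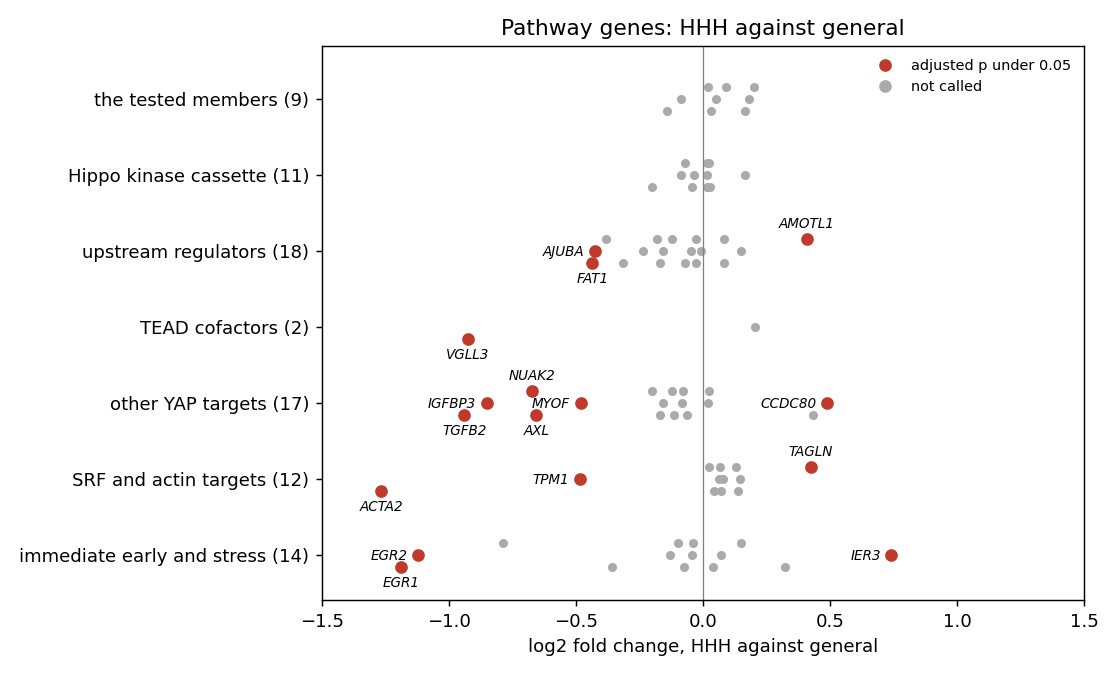
Log2 fold change of HHH against general for the tested genes of each pathway list, 1 point per gene, with the number tested in parentheses; red points passed an adjusted p of 0.05 and carry their symbols, and the height within a row only separates points. The 9 members and the 11 kinase cassette genes are all grey and lie between -0.20 and 0.20, while VGLL3 (-0.93) and TGFB2 (-0.94) stand on the left.

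Markers of other cell types moved with the same comparison. The counts below stand beside 3.89% of all 23552 tested genes called lower in HHH and 1.94% called higher. Of the 10 neuroectoderm markers 8 were tested and 4 (LHX5, DLK1, ZIC1 and SOX1) were lower in HHH, with a summed level of 193 to 277 CPM in general and 131 to 247 CPM in HHH, most of it NES. The call on SOX1 held in 2 of the 10 fits that left out a library. LHX5, a neural homeobox gene, was at 5.16 and 2.80 CPM in general and 0.0643 and 0.366 CPM in HHH in batch 1, and at 5.87, 9.88 and 10.4 CPM against 0.103, 0.0519 and 0.141 CPM in batch 2. Of 8 trophoblast and amnion markers 4 were tested, 2 (KRT7 and IGFBP3, which is also in the target list) were lower and 1 (GABRP) higher, and the sum was 14.0 to 22.3 CPM in general and 11.6 to 15.5 CPM in HHH. CDX2 and GATA3 were under 0.11 CPM in every library. Of 9 mesenchyme markers 5 were tested, COL1A1 was lower (-0.94, adjusted p = 0.00334) and THY1 higher (0.61, adjusted p = 0.000452), and the sum was 272 to 291 CPM in general and 298 to 354 CPM in HHH, with DCN at 0 in all general libraries. Much of that sum was THY1 itself, at 135 to 157 CPM in general and 189 to 245 CPM in HHH. Of the 9 markers 5 had means under 1 CPM in both populations. The higher sum is therefore not a measure of mesenchyme cells. The part of other cell types in the lower levels of VGLL3, AXL and the other targets was not tested. With the replicate block VTCN1 (adjusted p = 0.0385) and COL1A2 (adjusted p = 0.0281) were also called lower, which makes 3 lower trophoblast and amnion markers and 2 lower mesenchyme markers.

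After each batch's mean was subtracted, some of these genes varied together across the 10 libraries. The 5 protein-coding genes nearest to CCN2 by Pearson's r of log2 CPM, among 13242, were COL26A1 (r = 0.91), ARPIN (0.87), C11orf65 (0.85), AMOTL2 (0.84) and METRNL (0.84), so that a fellow target ranked among them. Nearest to YAP1 were NBDY (r = 0.97), GSPT1 (0.96), ADPRS (0.96), WDR82 (0.95) and ZNF93 (0.94). Among the members themselves CCN2 and AMOTL2 (0.84) and YAP1 and TEAD4 (0.84) were the closest pairs. These are descriptions over libraries that share scaling and batch centring, chosen as the highest of many. The difference between HHH and general was not subtracted and enters these r values. The 5 genes nearest to YAP1 had log2 fold changes of 0.13 to 0.17, beside 0.16 for YAP1. Those nearest to CCN2 had -0.04 to 0.07, beside 0.02 for CCN2. Counting is not stated to use strand, and some exonic bases are shared with genes on the other strand: 11.9% of CCN2 with LINC01013, 10.7% of TEAD2 with CD37, 9.05% of WWTR1 with WWTR1-AS1 and 9.95% of YAP1 with an unnamed gene, so reads there cannot be told apart.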

How the data were processed

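Bulk RNA libraries (TruSeq) of general and HHH cells were grouped, batched and numbered from their labels. The authors deposited whole counts per Ensembl gene without normalization. They also deposited log2 RPKM values, here treated as a score, in which each gene has the same mean in both batches. That table served for levels and was not tested. In it both HHH libraries of batch 1 lay below both general libraries for YAP1, WWTR1, TEAD1, TEAD2, TEAD3, CCN1, CCN2 and AMOTL2. By CPM from the counts this held in batch 1 for CCN1 alone of these genes. The reason was not tested. The submitters' processing notes name CASAVA 1.8.2, R 3.2.2, limma 3.26.9 and the build GRCh37; the aligner and counter are not given in the sources used here. Symbols, exonic lengths and coordinates came from GENCODE 44 (GRCh38), which matched 88.5% of 55841 identifiers, and promoters from RefSeq.

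Counts were tested with edgeR 4.0.16 (R 4.3.3), using TMM scaling, genes passing filterByExpr at a minimum count of 10, a quasi-likelihood F test with batch and population as terms, and Benjamini-Hochberg adjustment over all tested genes, at an adjusted p of 0.05. Intervals are 95% and cover single genes. Within-batch, interaction and batch fits used the same steps, and the procedure was tested on simulated data. Alternatives were DESeq2 1.42.0, limma voom (limma 3.58.1), other scalings and filters, a 1.5-fold limit, no batch term, a replicate block and leaving out each library. Totals of 47242595 to 78503395 counts made 1 count worth 0.0153 to 0.0229 CPM. Replicates differed beyond counting noise (chi-square over its degrees of freedom 6.42 to 55.8). Deviations from the group means of same-numbered HHH and general libraries correlated at 0.113 in batch 1, which shares 1 number, and at 0.239, 0.143 and 0.113 in batch 2. Pairs of batch 2 with different numbers correlated at -0.126 to -0.00512. Whether the numbers mark true pairs was not tested. The numbers were taken as pairs only in the replicate block. The fit with batch and population did not pair the libraries, so its p-values and intervals leave any pairing out. With 2 libraries a group the batch 1 value has the same size for every pair.

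The 10 genes and the lists were chosen with earlier results of these data known. All 10 genes are named. From each list the text names up to 5 called genes with the largest log2 fold change, the same direction in both batches and at least 1 CPM in the higher population, or else up to 2 with the highest levels; FOXA2 and MIXL1 came in that way. LATS2, PTPN14, VGLL4, MYOF, ACTA2, FJX1, DCHS1, AMOT, CD9, TDGF1, COL1A2, VTCN1, NES, the scarce markers and the listed kinases fall outside this rule and were named after their values were seen. The 5 nearest genes were taken among protein-coding genes of at least 1 CPM. Neither authors' fold changes nor p-values were used.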

Additional observations from a re-analysis of the deposited data

Results flagged for a closer look

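None of the 10 genes had a library far from its group by Dixon's test at 95%. No change of the HHH against general difference between the batches was called for the 9 tested genes. With so few libraries a group this does not show that there was none. The 95% interval of the TEAD3 interaction ran from -0.72 to 0.03 on the log2 scale. ANKRD1 was too low to be tested. Among the other named genes, 3 differences changed between batch 1 and batch 2 by an edgeR interaction test. The log2 fold change of FJX1, a target of YAP, in batch 2 minus that in batch 1 was -0.87 (adjusted p = 0.024). That of DCHS1, a protocadherin of the FAT family pathway, gave -0.81 (adjusted p = 0.0352), and that of COL1A1, a collagen, gave -1.01 (adjusted p = 0.0315).

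In 5 of the 80 groups of 5 libraries examined, 1 library stood apart. Chance gives about 1 in 20 where all libraries of a group are alike. Each group here pooled both batches, so that rate does not strictly apply. Every library that stood apart was of batch 1. General batch 1 replicate 2 was high for THY1 (157 CPM) and for FOXA2 (0.906 CPM). HHH batch 1 replicate 3 was low for MIXL1 (0.343 CPM) and high for LHX5 (0.366 CPM), and general batch 1 replicate 1 was low for CCDC80 (1.95 CPM).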

How the results depend on the processing

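The 9 tested genes stayed uncalled between HHH and general under all 18 alternatives. Over both batches, the differences of YAP1, WWTR1, TEAD2, TEAD3, TEAD4 and CCN1 kept their direction. TEAD1 turned to -0.0152 and CCN2 to -0.0495 with the replicate block, and CCN2 to -0.0102 with library size alone. Without single libraries TEAD1 ran from -0.0321 to 0.105, CCN2 from -0.0441 to 0.0925 and AMOTL2 from -0.0102 to 0.105; none of these values was called. Within batch 2, leaving out a library gave 0 to 1 called genes, the 1 being TEAD3 without HHH batch 2 replicate 2. The count over all genes, 1373, was 701 with a 1.5-fold limit, 168 without the batch term and 2423 without a filter on low counts, and ran from 808 (without HHH batch 2 replicate 2) to 2347 (without HHH batch 1 replicate 3) when a library was left out. The cause was not tested. It was 896 without general batch 2 replicate 1, 841 without general batch 2 replicate 3 and 831 without HHH batch 2 replicate 1. The replicate block gave 1636 called genes; among the listed genes it ended the calls on AMOTL1, MYOF, ACTA2 and SOX2 and added calls on AMOT, DCHS1, COL1A2 and VTCN1 (lower) and CD9 and TDGF1 (higher), and it changed no call on the 10 genes. Of the other YAP targets 6 were called, 3 without the batch term (TGFB2, IGFBP3 and NUAK2) and 4 to 7 when a library was left out, an alternative chosen after seeing the data, as was library size alone between the batches. Without the batch term AXL, FAT1 and AJUBA lost their calls and VGLL3 kept its call. Levels moved most for TEAD2 (5.63 to 5.89 log2 RPKM) and CCN1 (3.08 to 3.71) with the deposited values. Those values, which were not fitted, also put HHH below general in batch 1 for YAP1 and WWTR1. Depth limits ANKRD1 alone among the 10 genes.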

Other observations

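Genes that answer to the actin cytoskeleton through SRF, a pathway that runs beside YAP, and immediate early genes were also counted. Their counts stand beside 3.89% of all 23552 tested genes called lower in HHH and 1.94% called higher. Of 12 SRF and actin targets all were tested, 2 were lower in HHH and 1 was higher. TPM1, a tropomyosin, was lower (log2 fold change -0.48, edgeR, SE 0.0893, adjusted p = 0.00468). TAGLN, an actin-binding protein, was higher by 0.42 (adjusted p = 0.0460), a call lost with library size alone and in all fits that left out a library except those without general batch 1 replicate 2, HHH batch 1 replicate 3 or HHH batch 2 replicate 1, up to 0.132 without general batch 2 replicate 1. ACTA2, under 1 CPM in both populations, was lower (log2 fold change -1.27, adjusted p = 0.0340) and was lost with the replicate block (adjusted p = 0.0874), and in all fits that left out a library except those without general batch 1 replicate 2 or without either HHH library of batch 1. Of 14 immediate early and stress genes 2 were lower and 1 was higher. EGR1 and EGR2, zinc finger factors, were lower, with log2 fold changes of -1.19 (adjusted p = 0.000288) and -1.12 (adjusted p = 0.00094). IER3 was higher by 0.74 (adjusted p = 4.32e-05). These 3 calls held without any single library.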
